A study of Homo sapiens with 12 samples.

Results

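Collagen genes were followed in the sort fractions of motor neuron cultures exposed to cis-chlordane, an organochlorine pesticide. All genes of the count table whose symbol reads COL, a number, A and a number were taken, which gave 44 genes of the 28278 in the table, and 9 further collagen-named entries for antisense, divergent or pseudogene transcripts were left out. Of the 44 genes, 11 code for fibrillar chains, 8 for basement membrane chains, 10 for fibril-associated collagens with interrupted helices (FACIT), 5 for beaded filament chains, 4 for transmembrane collagens, 3 for short-chain network collagens and 1 for the anchoring fibril collagen, and 2 were left unclassified.

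The cultured cells were motor neurons made from WA09-Islet1-GFP. This is a wild-type line of human embryonic stem cells in which the Islet1 promoter drives GFP, so that GFP marks cells with Islet1 activity. The 4 groups were control (DMSO, the solvent) and treated (cis-chlordane) cells of the GFP-positive and the GFP-negative sort fraction, after 16 hours of exposure, with 3 bulk RNA-seq libraries each and 12 in all. All samples are labelled with 16 days of differentiation. In the study's methods, thawed cells grew for 72 hours before treatment. Labels give the dose as 10 µM and the study's methods as 16 µM, and the files do not settle which is right. The biological replicates are separate thaws of frozen cells in the study's terms, the line is the same throughout, and the GFP-negative fraction is whatever lacked GFP signal rather than a cell type of its own.

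Collagens are triple-helical proteins of the extracellular matrix. Fibrillar chains build the load-bearing fibrils of connective tissue, type IV chains build the sheet under epithelia and around vessels, FACIT collagens decorate fibrils, and transmembrane collagens sit in the plasma membrane and can be shed. In the nervous system collagens are known mainly from the meninges, vessels and nerve sheaths, while some transmembrane collagens are made by neurons and act at synapses, including the neuromuscular junction. Procollagen chains fold in the endoplasmic reticulum with dedicated chaperones and leave it in enlarged COPII carriers.

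Library totals ran from 23414935 to 38347050 counts, with a median of 31553596. ISL1, the gene of the reporter, averaged 65.7 ± 3.12 CPM (read counts per 1e6, TMM-scaled over all 12 libraries, mean ± SD, n = 3 as for all such values) in control GFP-positive and 2.57 ± 0.203 CPM in control GFP-negative cells. Treated libraries held less of it, at 12.0 ± 3.71 CPM in the GFP-positive and 0.548 ± 0.152 CPM in the GFP-negative fraction. The 8 motor neuron markers summed to 1214 to 1430 CPM in the control GFP-positive libraries and 229 to 251 CPM in the control GFP-negative ones, and 6 of the 8 were called higher in the control GFP-positive cells and 1, LHX3, lower. After treatment these sums were 296 to 440.3 and 69.97 to 93.8 CPM. Over all tested genes, 7.47% were called higher and 15.3% lower in control GFP-positive than in control GFP-negative cells.

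Together the 44 genes summed to 2285, 2548 and 2137 CPM in the control GFP-negative libraries and to 1005, 1096 and 1053 CPM in the control GFP-positive ones. Treated libraries held 1619, 2244 and 1384 CPM in the GFP-negative and 773, 746 and 569 CPM in the GFP-positive fraction. Thus the GFP-negative libraries carried more collagen RNA than the GFP-positive ones of the same treatment and number, and in bulk RNA fewer cells of a type and less RNA per cell cannot be told apart. Of the 44 genes, 33 reached a mean of 1 CPM in some group and 9 were never abundant enough to be tested, with at most 20 counts in any library: COL4A3, COL4A4, COL6A5, COL6A6, COL8A2, COL10A1, COL11A2, COL15A1 and COL19A1. The 6 most abundant genes held 75.6% of the collagen CPM in control GFP-negative and 80.2% in control GFP-positive cells. Per kilobase of exon, COL1A1 led in control GFP-negative cells at 66.4 CPM per kb, and COL6A1 led in control GFP-positive cells at 43.2 CPM per kb.

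Sort fractions were compared first among the control cultures. A gene was called when edgeR's quasi-likelihood test gave a Benjamini-Hochberg adjusted p under 0.05 over all genes tested and the fold change was at least 2, and the same rule holds below. Of 33 collagen genes tested, 19 were lower in GFP-positive than in GFP-negative control cells, where 15.3% of all tested genes were called lower, and 2 were higher, where 7.47% of all genes were. The median log2 fold change of the collagen genes was -1.56, against -0.02 over all tested genes. Groups did not overlap for 27 of the 33 genes (53.2% of all tested genes), and an adjusted p under 0.05 with no minimum fold was found for 40.2% of all genes. Among treated cultures 21 of 32 collagen genes were lower in GFP-positive cells (13.7% of all tested genes). None was called higher, 0 by edgeR and 0 by DESeq2, with 1 at an unadjusted edgeR p under 0.05, where 10.0% of all genes were higher. Libraries did not overlap for 25 of the 32 genes (57.8% of all tested genes), and the median was -1.66 against 0.05. In the controls 8 of 9 fibrillar, 5 of 5 basement membrane, 5 of 9 FACIT and 1 of 1 short-chain network genes tested were called lower, against 0 of 4 transmembrane genes, as the plot of differences between the fractions shows.

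**Figure D1:**
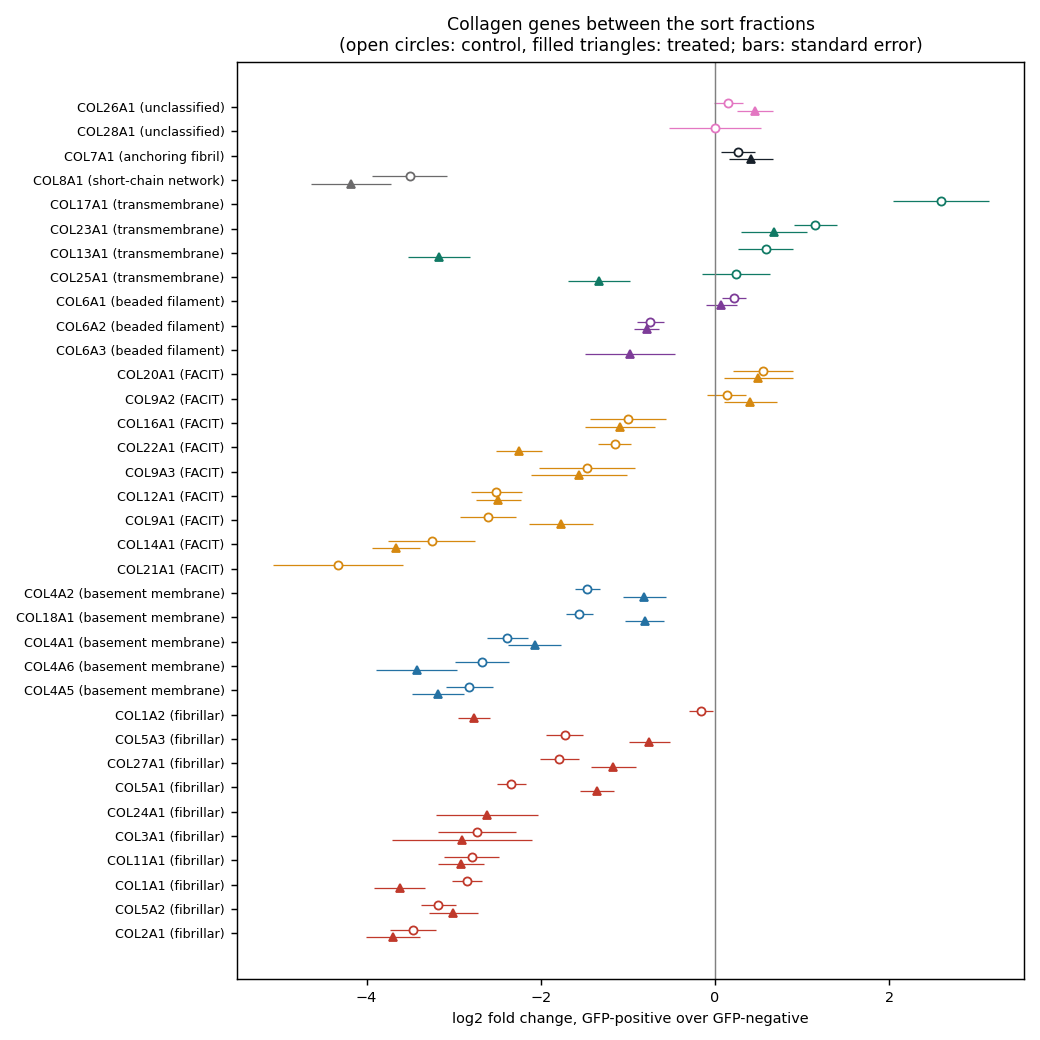
Log2 fold change of GFP-positive over GFP-negative cells (x axis) for each tested collagen gene (y axis, with its class), in control (open circles) and treated cultures (filled triangles), with standard errors. All 9 fibrillar genes tested in the controls lay below zero, all 4 transmembrane genes lay above it, and COL13A1, COL25A1 and COL1A2 moved leftwards in the treated cultures.

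Markers of other cell types differed between the fractions as well. In control GFP-negative and control GFP-positive libraries respectively, the 5 smooth muscle markers summed to 317 to 427 and 39.5 to 46.3 CPM, the 5 proliferation markers to 459 to 609 and 59.3 to 91.4 CPM, and the 9 neural progenitor markers to 2415 to 4033 and 1455 to 1748 CPM. The 9 mesenchymal markers summed to 93.3 to 103 and 88.6 to 114 CPM. Of 5 tested, 0 were called higher and 3 lower in GFP-positive against GFP-negative cells (median -1.75), beside 7.47% and 15.3% of all genes. PRRX1 and TBX18 were under 0.1 CPM on average in every group. The 6 chondrocyte markers summed to 27.2 to 35.5 and 5.10 to 9.25 CPM, the 5 endothelial markers to 24.4 to 37.04 and 4.88 to 5.09 CPM, the 5 floor plate markers to 26.3 to 59.5 and 8.28 to 9.50 CPM, the 5 astroglial markers to 16.7 to 19.4 and 1.79 to 2.37 CPM, the 6 neural crest and Schwann markers to 35.2 to 46.7 and 15.5 to 19.8 CPM, and the 4 pluripotency markers to 219.8 to 258 and 155 to 170.3 CPM. Of the pluripotency markers, POU5F1 and NANOG averaged under 0.1 CPM in every group. The same held for SOX10 of the neural crest and Schwann list and MYH11 of the smooth muscle list. It also held for HES5, FERD3L, HAPLN1 and AQP4 of the neural progenitor, floor plate, chondrocyte and astroglial lists. The part of other cell types in the collagen levels was not tested.

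Treatment was then compared with control within each fraction. Among GFP-positive cells 4 of 31 tested collagen genes rose, where 12.8% of all tested genes rose, and 8 fell, where 11.2% of all genes fell. Their median log2 fold change was -0.53 against 0.03 over all genes. Among GFP-negative cells 5 of 33 rose (8.59% of all tested genes) and 9 fell (9.75%), with a median of -0.34 against -0.01. Control and treated libraries did not overlap for 23 of the 31 genes in GFP-positive cells (57.5% of all tested genes) and for 20 of the 33 in GFP-negative cells (46.6%). Of the 29 collagen genes tested in both fractions, 24 had a log2 fold change of the same sign in both, or 82.8%, against 78.7% of all 14855 genes so tested. Libraries of the fractions that share a treatment and number may come from the same culture.

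**Figure D2:**
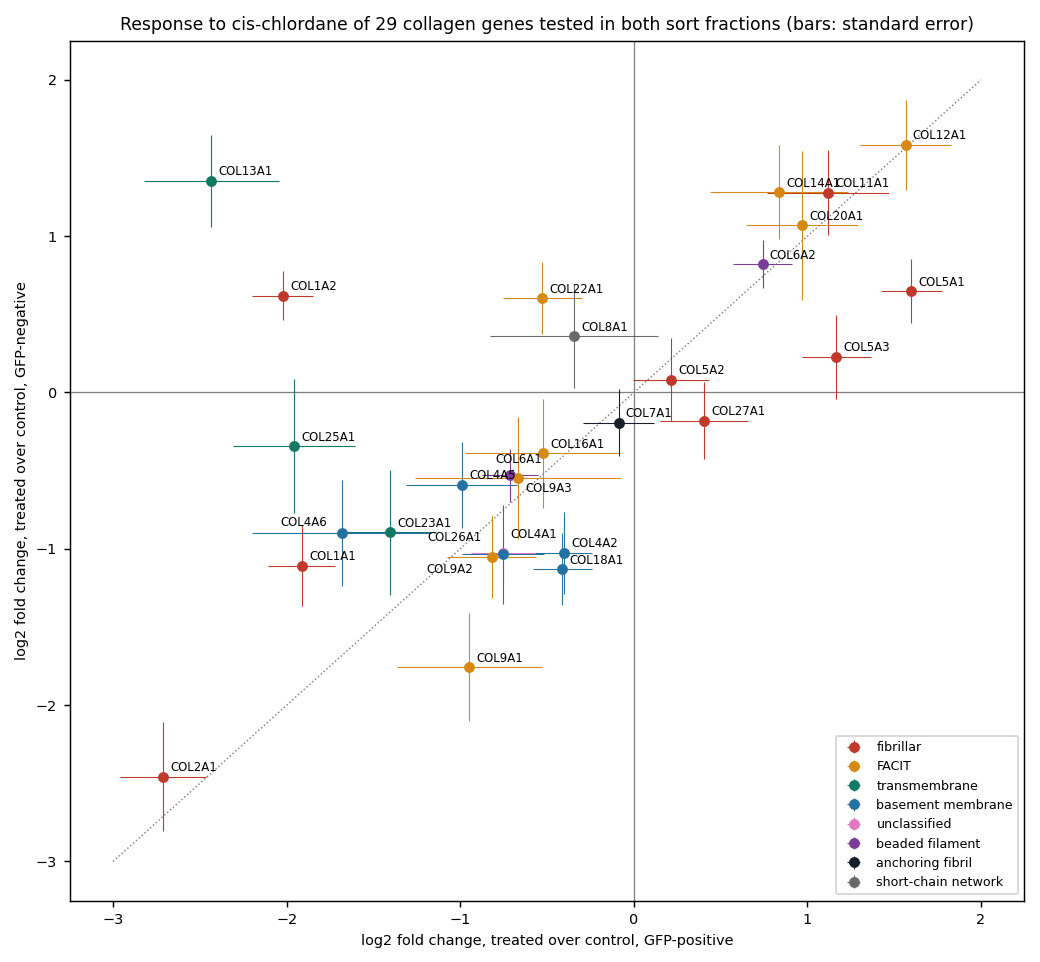
Log2 fold change of treated over control cells in the GFP-positive (x axis) and the GFP-negative fraction (y axis) for the 29 collagen genes tested in both, coloured by class, with standard errors and the line of equal response (dotted). Most genes lie near the line, from COL2A1 at the lower left to COL12A1 at the upper right, while COL13A1 and COL1A2 lie at the upper left.

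The chains of type I collagen, the main fibrillar collagen of bone, skin and tendon, went apart in the GFP-negative fraction. COL1A1 codes for the chain present in a pair in each type I molecule, and COL1A2 for its partner. COL1A1 was at 540.4, 637 and 616 CPM in control and 245, 409 and 189 CPM in treated GFP-negative libraries. COL1A1 in GFP-positive cells was at 78.7, 81.2 and 108 CPM in control and 24.4, 27.4 and 16.05 CPM in treated libraries. All treated libraries were below all controls in both fractions, and the GFP-positive libraries were below the GFP-negative ones under both treatments. It fell by 1.91 ± 0.19 on the log2 scale (± SE) in GFP-positive cells (edgeR adjusted p = 3.4e-10) and by 1.11 ± 0.26 in GFP-negative cells (edgeR adjusted p = 0.0099). The GFP-negative call was lost without treated GFP-negative replicate 1 (log2 fold change -1.03, edgeR adjusted p = 0.058) and without replicate 3 of that group (-0.90, under 2-fold).

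COL1A2 was at 190.3, 213 and 175 CPM in control and 299, 330.4 and 271 CPM in treated GFP-negative libraries. COL1A2 in GFP-positive cells was at 166, 191 and 199 CPM in control and 47.1, 50.9 and 32.5 CPM in treated libraries. The treated libraries thus lay above all controls in the GFP-negative fraction and below all controls in the GFP-positive fraction. In controls COL1A2 was the only tested fibrillar gene not called lower in GFP-positive cells, with a log2 fold change of -0.16 ± 0.14 (95% interval -0.47 to 0.15, edgeR adjusted p = 0.39), whereas among treated cells it was lower there by 2.77 ± 0.19 (edgeR adjusted p = 2.5e-07). With treatment it fell 4.06-fold in GFP-positive cells, by 2.02 ± 0.18 on the log2 scale (edgeR adjusted p = 1.1e-11). It rose 1.54-fold in GFP-negative cells, by 0.62 ± 0.16 (edgeR adjusted p = 0.014), which is under the 2-fold limit. Without treated GFP-negative replicate 1 the GFP-negative value was 0.61 with an edgeR adjusted p of 0.059.

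**Figure D3:**
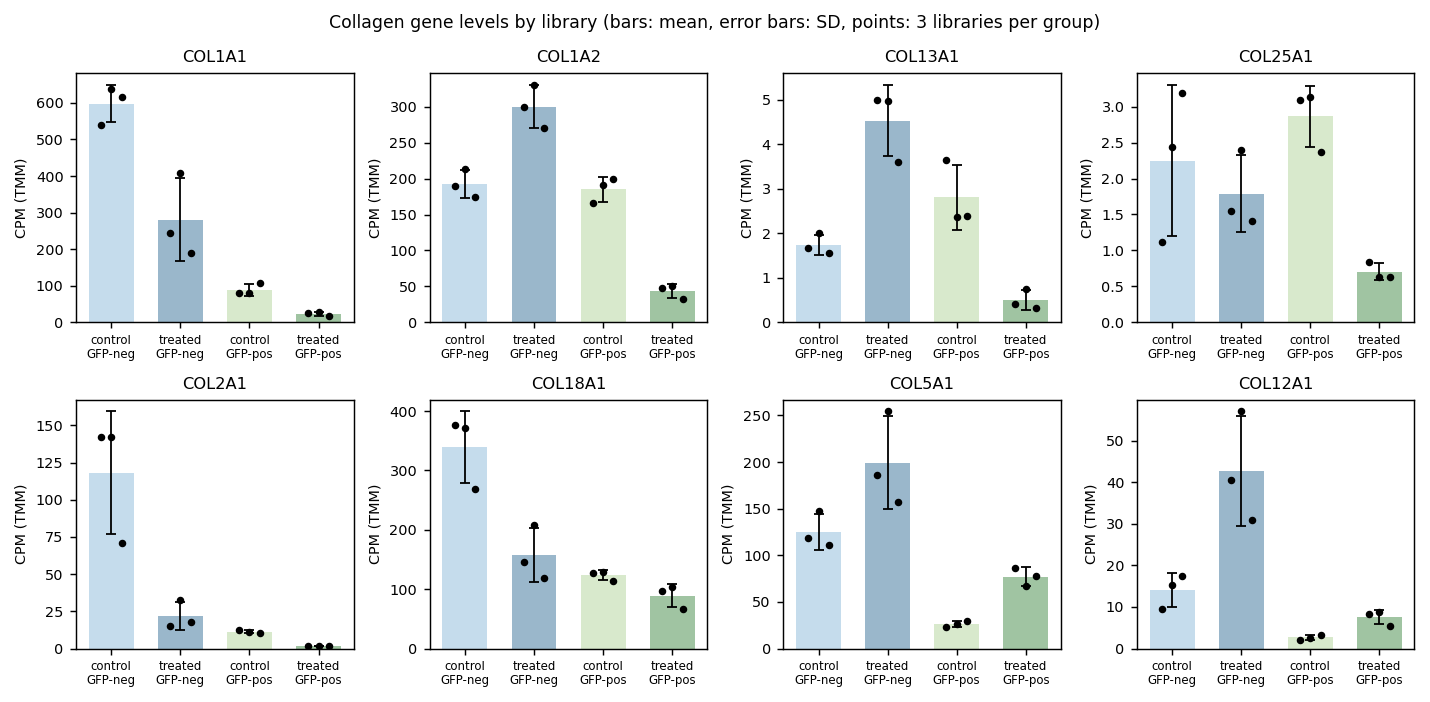
CPM of 8 collagen genes (y axes, from zero) in the 4 groups (x axes), with the mean (bars), SD (error bars) and the 3 libraries of each group (points). COL1A2 and COL13A1 were higher in treated than control GFP-negative libraries and lower in treated than control GFP-positive ones, and COL25A1 showed a clear gap between control and treated libraries in GFP-positive cells but overlapping ones in GFP-negative cells.

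COL2A1, the chain of cartilage type II collagen, fell most among the fibrillar genes called lower. COL2A1 was at 142, 142 and 70.8 CPM in control and 15.02, 32.3 and 18.2 CPM in treated GFP-negative libraries. COL2A1 in GFP-positive cells was at 12.7, 11.4 and 10.2 CPM in control and 1.59, 1.83 and 1.56 CPM in treated libraries. Neither fraction showed overlap, and the log2 fold changes were -2.71 ± 0.25 in GFP-positive (edgeR adjusted p = 3.2e-11) and -2.46 ± 0.35 in GFP-negative cells (edgeR adjusted p = 7.9e-04). Beside it, the chondrocyte markers summed to 19.04 to 21.6 CPM in treated GFP-negative and 8.50 to 10.7 CPM in treated GFP-positive libraries. In GFP-positive cells 2 were called higher and 0 lower of 4 tested, where 12.8% and 11.2% of all tested genes were. In GFP-negative cells 1 was called higher and 1 lower of 5 tested, where 8.59% and 9.75% of all tested genes were. The part of these markers in the COL2A1 result was not tested.

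Type V and type XI chains form the core of fibrils and limit their diameter, and COL5A1, COL5A3 and COL11A1 were the fibrillar genes called higher. COL5A1 was at 118, 147 and 111 CPM in control and 186, 254 and 157 CPM in treated GFP-negative libraries. COL5A1 in GFP-positive cells was at 23.5, 26.5 and 29.9 CPM in control and 86.8, 66.7 and 77.6 CPM in treated libraries. Groups did not overlap in either fraction. It rose by 1.60 ± 0.18 on the log2 scale in GFP-positive cells (edgeR adjusted p = 2.4e-09) and by 0.65 ± 0.21, under 2-fold, in GFP-negative cells (edgeR adjusted p = 0.038). COL5A3, another type V chain, was at 9.43, 11.4 and 9.28 CPM in control and 24.6, 17.6 and 22.3 CPM in treated GFP-positive libraries. COL5A3 in GFP-negative cells was at 37.9, 31.6 and 23.1 CPM in control and 33.6, 49.8 and 26.5 CPM in treated libraries. It rose in GFP-positive cells by 1.17 ± 0.20 (edgeR adjusted p = 9.5e-06), while the GFP-negative libraries overlapped (0.23 ± 0.27, edgeR adjusted p = 0.56).

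COL11A1, the type XI chain of cartilage fibrils, was at 4.63, 7.46 and 7.58 CPM in control and 15.7, 20.03 and 12.7 CPM in treated GFP-negative libraries. COL11A1 in GFP-positive cells was at 1.16, 0.840 and 1.06 CPM in control and 2.73, 1.72 and 1.88 CPM in treated libraries. All treated libraries were above all controls in both fractions. It rose by 1.28 ± 0.27 in GFP-negative cells (edgeR adjusted p = 0.0064) and by 1.12 ± 0.35 in GFP-positive cells (edgeR adjusted p = 0.0082). The GFP-positive call was lost without control GFP-positive replicate 2 (0.99, edgeR adjusted p = 0.054) and without treated GFP-positive replicate 1 (0.88, edgeR adjusted p = 0.082). Of the other fibrillar genes, COL5A2 (0.21 ± 0.22 in GFP-positive and 0.08 ± 0.27 in GFP-negative cells) and COL27A1 (0.40 ± 0.25 and -0.18 ± 0.25) passed no test of treatment. COL3A1 averaged 2.97 ± 0.0641 CPM in control GFP-negative cells and under 1 CPM in GFP-positive cells, and COL24A1 averaged under 1 CPM in every group.

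Because type I and type V molecules are built from different chains, the ratio of the partner chains was taken per kilobase of exon in each library. COL1A1 over COL1A2 was 3.41, 3.59 and 4.23 in control GFP-negative libraries and 0.983, 1.48 and 0.836 in treated ones. The same ratio was 0.571, 0.511 and 0.651 in control and 0.622, 0.646 and 0.593 in treated GFP-positive libraries. The GFP-negative groups did not overlap, and the GFP-positive groups did. COL5A1 over COL5A2 was 1.71, 2.21 and 2.24 in control and 5.05, 4.29 and 7.34 in treated GFP-positive libraries, again without overlap. In GFP-negative libraries it was 1.39, 1.22 and 0.905 in control and 1.96, 1.50 and 1.81 in treated cells, also without overlap. No test was run on the ratios.

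**Figure D4:**
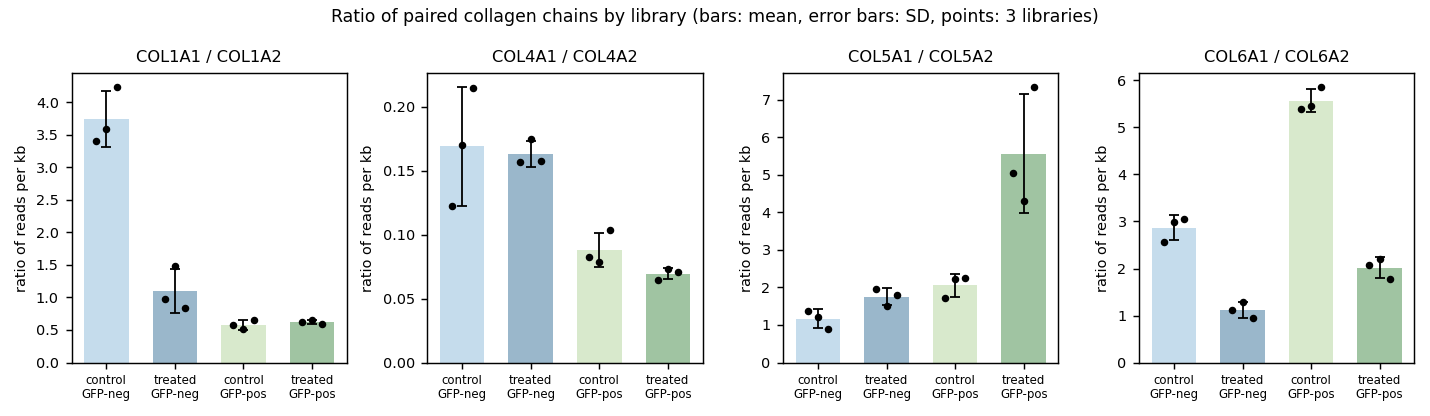
Ratio of 2 chains of the same collagen type, as reads per kilobase of exon (y axes, from zero), in the 4 groups (x axes), with the mean (bars), SD (error bars) and the 3 libraries of each group (points). COL1A1 over COL1A2 was above 3 in every control GFP-negative library and under 1.5 in the other groups, and COL6A1 over COL6A2 was lower in treated than control libraries of both fractions.

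Type VI collagen forms beaded filaments close to cell surfaces, and its COL6A1 and COL6A2 chains shifted in opposite directions in both fractions, each by under 2-fold. COL6A1 fell by 0.71 ± 0.16 in GFP-positive (edgeR adjusted p = 3.7e-04) and 0.53 ± 0.17 in GFP-negative cells (edgeR adjusted p = 0.039). COL6A2 rose by 0.74 ± 0.17 (edgeR adjusted p = 4.1e-04) and 0.82 ± 0.15 (edgeR adjusted p = 0.0034) respectively. The ratio of the first to the second, per kilobase, was 5.40, 5.46 and 5.86 in control and 2.08, 2.20 and 1.78 in treated GFP-positive libraries. For GFP-negative cells it was 2.56, 2.99 and 3.05 in control and 1.11, 1.29 and 0.943 in treated libraries, so neither fraction showed overlap.

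COL6A3, the largest chain of the type, was far less abundant than its partners per kilobase. COL6A3 was at 0.328, 0.411 and 0.399 CPM in control and 0.604, 1.42 and 1.24 CPM in treated GFP-negative libraries. COL6A3 in GFP-positive cells was at 0, 0.0579 and 0.256 CPM in control and 0.600, 0.859 and 0.185 CPM in treated libraries, and it was not tested there. It rose by 1.49 ± 0.46 in GFP-negative cells (edgeR adjusted p = 0.032), with no overlap. That call was lost under 8 of the 12 alternatives, among them DESeq2 (1.51, adjusted p = 0.056) and the fits without control GFP-negative replicate 1 (1.40) or 2 (1.56) or treated GFP-negative replicate 2 (1.26) or 3 (1.38).

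Among FACIT collagens the direction split by gene. COL12A1, which coats type I fibrils and is known from tissues under mechanical load, was at 9.52, 15.4 and 17.3 CPM in control and 40.4, 56.997 and 30.8 CPM in treated GFP-negative libraries. COL12A1 in GFP-positive cells was at 2.16, 2.52 and 3.30 CPM in control and 8.25, 8.82 and 5.53 CPM in treated libraries. All treated libraries were above all controls. It rose in both fractions, 2.96-fold in GFP-positive (1.57 ± 0.26, edgeR adjusted p = 6.1e-06) and 2.998-fold in GFP-negative cells (1.58 ± 0.29, edgeR adjusted p = 0.0028). The difference between these responses was -0.10 ± 0.39 with a 95% interval of -0.94 to 0.73, and its sign turned under 5 alternatives. COL14A1, a close relative of COL12A1, was at 6.54, 10.3 and 13.6 CPM in control and 21.5, 33.6 and 19.9 CPM in treated GFP-negative libraries. COL14A1 in GFP-positive cells was at 0.522, 0.753 and 2.14 CPM in control and 2.40, 1.98 and 1.48 CPM in treated libraries, which overlapped. It rose by 1.28 ± 0.30 in GFP-negative cells (edgeR adjusted p = 0.010), and in GFP-positive cells the value was 0.84 ± 0.40 (edgeR adjusted p = 0.079), or 1.65 without control GFP-positive replicate 3, when it was called.

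Type IX chains bind type II fibrils in cartilage and the vitreous. COL9A1 was at 7.55, 7.37 and 4.39 CPM in control and 1.51, 2.58 and 1.70 CPM in treated GFP-negative libraries. COL9A1 in GFP-positive cells was at 0.820, 1.27 and 1.28 CPM in control and 0.510, 0.658 and 0.503 CPM in treated libraries. It fell by 1.76 ± 0.34 in GFP-negative cells (edgeR adjusted p = 0.0041), and the GFP-positive value was -0.95 ± 0.42 (edgeR adjusted p = 0.057), with no overlap in either fraction. COL9A2 was at 7.98, 6.37 and 5.63 CPM in control and 3.58, 3.16 and 3.04 CPM in treated GFP-negative libraries. COL9A2 in GFP-positive cells was at 7.16, 8.80 and 7.61 CPM in control and 4.92, 5.41 and 2.46 CPM in treated libraries, again below all controls. Between the control fractions COL9A2 passed no test (0.14 ± 0.22, 95% interval -0.36 to 0.63), whereas COL9A1 was lower in GFP-positive cells (-2.61 ± 0.32, edgeR adjusted p = 1.5e-04). COL9A2 fell by 1.05 ± 0.27 in GFP-negative cells (edgeR adjusted p = 0.014) and by 0.82 ± 0.26, under 2-fold, in GFP-positive cells (edgeR adjusted p = 0.0081). The GFP-negative call was lost without control GFP-negative replicate 1 (-0.90) and without replicate 2 of that group (-1.08, edgeR adjusted p = 0.053).

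COL21A1, a small FACIT collagen known from vessel walls, was at 0.788, 1.41 and 3.51 CPM in control and 0.129, 0.182 and 0.142 CPM in treated GFP-negative libraries. COL21A1 in GFP-positive cells was at 0.112, 0.0290 and 0.160 CPM in control and 0.210, 0.0286 and 0.132 CPM in treated libraries, too low to be tested. The control GFP-negative libraries were widely spread, yet all lay above the treated ones. It fell by 3.62 ± 0.64 on the log2 scale there (edgeR adjusted p = 0.0025), the largest decrease among the collagen genes called in GFP-negative cells. Of the remaining FACIT genes, COL22A1 stood at 11.3 ± 1.09 CPM in control and 7.49 ± 2.40 CPM in treated GFP-positive cells, and at 23.4 ± 4.15 and 36.04 ± 9.15 CPM in GFP-negative cells. Its values of -0.53 ± 0.23 in GFP-positive (edgeR adjusted p = 0.051) and 0.60 ± 0.23 in GFP-negative cells (edgeR adjusted p = 0.074) passed neither test, although the groups overlapped in neither fraction. COL20A1 rose under 2-fold in GFP-positive cells (0.97 ± 0.32, edgeR adjusted p = 0.012), and COL9A3 and COL16A1 passed no test of treatment.

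Basement membrane genes had lower values after treatment in both fractions. Of the 8, 5 were tested (COL4A1, COL4A2, COL4A5, COL4A6 and COL18A1), and all 5 had negative log2 fold changes in both, with an adjusted p under 0.05 for 5 in GFP-positive cells (50.9% of all tested genes, in either direction) and 3 in GFP-negative cells (31.5%). Type IV genes lie head to head in pairs that start close together on opposite strands. The DNA between the start of COL4A1 on the minus strand and the RefSeq start of COL4A2 on the plus strand is shown because it lies between both starts, with a CCAAT match in capitals, in the GRCh38.p14 RefSeq sequence, plus strand, chr13:110307158-110307257.

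COL4A1 to COL4A2: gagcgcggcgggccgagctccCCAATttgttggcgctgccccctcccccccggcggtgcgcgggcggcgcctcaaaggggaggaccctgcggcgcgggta

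On the X chromosome COL4A6 and COL4A5 share such a start region in the same way. The 250 bases before COL4A5 (GRCh38.p14 RefSeq, plus strand, chrX:108439588-108439837), with the CCAAT matches of both strands in capitals, lie between the starts of both genes.

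COL4A6 to COL4A5: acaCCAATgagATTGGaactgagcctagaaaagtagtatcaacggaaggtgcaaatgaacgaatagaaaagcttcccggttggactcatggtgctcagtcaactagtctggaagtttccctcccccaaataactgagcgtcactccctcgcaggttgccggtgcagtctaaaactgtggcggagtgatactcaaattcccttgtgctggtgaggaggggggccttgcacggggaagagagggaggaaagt

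CCAAT, searched on both strands in the 250 bases before the start, was found in 11 of the 32 collagen genes with a promoter in the RefSeq table, or 34.4%, and in 32.01% of all 35116 promoters. GGGCGG, the core of the GC box, was found in 21 of the 32, or 65.6%, against 42.6% of all promoters. The endoplasmic reticulum stress response element, which holds CCAAT within it, was found in 0 of the 32 and in 0.0740% of all promoters. TTGCATCA, a letter form of the composite C/EBP-ATF element, was found in 0 of the 32 and in 0.772% of all promoters. A collagen gene was counted if any of its promoters held the motif, whereas the share of all promoters counted each promoter singly. The shares are therefore not like for like.

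COL4A1 and COL4A2, the pair found in nearly all basement membranes, both fell in GFP-negative cells. COL4A1 was at 29.2, 44.4 and 44.2 CPM in control and 16.1, 29.7 and 12.5 CPM in treated GFP-negative libraries. COL4A1 in GFP-positive cells was at 7.08, 7.50 and 9.69 CPM in control and 4.92, 5.01 and 3.81 CPM in treated libraries. The GFP-negative groups overlapped by 1 library on each side, and the GFP-positive groups did not overlap. COL4A2 was at 315, 344 and 270.2 CPM in control and 135, 223 and 104 CPM in treated GFP-negative libraries. COL4A2 in GFP-positive cells was at 112, 126 and 123 CPM in control and 99.8, 90.5 and 70.5 CPM in treated libraries, without overlap in either fraction. In GFP-negative cells COL4A1 fell by 1.03 ± 0.32 (edgeR adjusted p = 0.033) and COL4A2 by 1.03 ± 0.26 (edgeR adjusted p = 0.015). In GFP-positive cells the log2 fold changes were -0.75 ± 0.24 (edgeR adjusted p = 0.0076) and -0.40 ± 0.16 (edgeR adjusted p = 0.038), both under 2-fold. Both GFP-negative calls were lost without control GFP-negative replicate 2 (COL4A1 -0.93, COL4A2 -0.94), without treated GFP-negative replicate 1 (-0.93 and -0.95) and without treated GFP-negative replicate 3 (both -0.81), and that of COL4A1 also without control GFP-negative replicate 3 (-0.94). The annotations of the pair overlap on opposite strands, and the strand setting of the counting was not given in the sources used here. COL4A1 over COL4A2, per kilobase, was 0.122, 0.170 and 0.215 in control and 0.157, 0.175 and 0.157 in treated GFP-negative libraries, which overlapped. In GFP-positive libraries this ratio was 0.0828, 0.0785 and 0.103 in control and 0.0648, 0.0728 and 0.0711 in treated cells, without overlap.

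COL4A6 is an X-linked chain of specialised basement membranes such as those of smooth muscle. COL4A6 was at 4.53, 4.67 and 3.55 CPM in control and 1.64, 3.31 and 1.98 CPM in treated GFP-negative libraries. COL4A6 in GFP-positive cells was at 0.634, 0.637 and 0.864 CPM in control and 0.270, 0.258 and 0.106 CPM in treated libraries. It fell by 1.68 ± 0.52 in GFP-positive cells (edgeR adjusted p = 0.0066), and its GFP-negative value was -0.90 ± 0.34 (edgeR adjusted p = 0.069), called without control GFP-negative replicate 3 (-1.01) or treated GFP-negative replicate 2 (-1.25). Its neighbour COL4A5 had values of -0.99 ± 0.32 in GFP-positive (edgeR adjusted p = 0.0098) and -0.59 ± 0.28 in GFP-negative cells (edgeR adjusted p = 0.13).

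COL18A1, the heparan sulfate-bearing collagen whose end fragment is endostatin, was the most abundant basement membrane gene per kilobase in control GFP-negative cells. COL18A1 was at 376, 371 and 269 CPM in control and 145, 208 and 118 CPM in treated GFP-negative libraries. COL18A1 in GFP-positive cells was at 128, 129 and 114 CPM in control and 96.6, 103 and 66.4 CPM in treated libraries. No groups overlapped, and it fell by 1.13 ± 0.23 in GFP-negative (edgeR adjusted p = 0.0053) and by 0.41 ± 0.17, under 2-fold, in GFP-positive cells (edgeR adjusted p = 0.040). Without treated GFP-negative replicate 3 the GFP-negative value was -0.97, under 2-fold. Endothelial markers stood at 88.8 to 131 CPM in treated GFP-negative and 8.07 to 10.4 CPM in treated GFP-positive libraries, where 1 higher and 2 lower of 3 tested were called in GFP-positive and 1 higher and 2 lower of 5 tested in GFP-negative cells (medians -2.50 and -2.25), KDR being the higher one in both, and smooth muscle markers at 203 to 239.7 and 28.7 to 35.1 CPM, with 1 higher and 1 lower of 4 tested in each fraction. Over all tested genes, 12.8% rose and 11.2% fell in GFP-positive cells, and 8.59% rose and 9.75% fell in GFP-negative cells. The part of these markers in the basement membrane values was not tested.

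Transmembrane collagens are chains anchored in the plasma membrane, and all 4 fell in GFP-positive cells, where 11.2% of all tested genes fell. Summed over the 4 genes the GFP-positive libraries held 14.5, 13.8 and 11.5 CPM in controls and 3.90, 3.89 and 2.91 CPM after treatment. The same sum was 5.88, 7.22 and 7.30 CPM in control and 7.81, 9.96 and 6.05 CPM in treated GFP-negative libraries. It thus dropped without overlap in the GFP-positive fraction and overlapped in the GFP-negative fraction.

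COL13A1, which stabilises the neuromuscular junction, shifted in opposite directions in the GFP-positive and GFP-negative fractions. COL13A1 was at 1.67, 1.996 and 1.56 CPM in control and 5.01, 4.98 and 3.61 CPM in treated GFP-negative libraries. COL13A1 in GFP-positive cells was at 3.65, 2.38 and 2.40 CPM in control and 0.420, 0.744 and 0.318 CPM in treated libraries. Neither pair of groups overlapped. It fell 5.40-fold in GFP-positive cells, by 2.43 ± 0.39 (edgeR adjusted p = 2.8e-06), and rose 2.56-fold in GFP-negative cells, by 1.35 ± 0.30 (edgeR adjusted p = 0.0073). Between the control fractions it passed no test (0.58 ± 0.31 for GFP-positive over GFP-negative, edgeR adjusted p = 0.17), although the libraries did not overlap, and among treated cells it was lower in GFP-positive cells (-3.17 ± 0.36, edgeR adjusted p = 1.8e-05). Its upstream 224 bases, shown for this opposite response (GRCh38.p14 RefSeq, plus strand, chr10:69801656-69801879), hold a TATAAA match in capitals. The match begins at base 15 of the 224, at the end far from the gene start. The motif was found in 10.7% of all promoters and in any promoter of 7 of the 32 collagen genes, and its part in the response was not tested.

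COL13A1: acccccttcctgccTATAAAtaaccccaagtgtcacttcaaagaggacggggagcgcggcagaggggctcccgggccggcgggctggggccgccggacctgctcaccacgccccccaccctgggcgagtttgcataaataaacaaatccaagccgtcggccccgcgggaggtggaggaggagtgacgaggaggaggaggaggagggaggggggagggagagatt

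COL25A1 codes for a membrane collagen of neurons that is needed for motor axons to enter muscle. COL25A1 was at 3.09, 3.13 and 2.37 CPM in control and 0.840, 0.630 and 0.636 CPM in treated GFP-positive libraries. COL25A1 in GFP-negative cells was at 1.12, 2.44 and 3.19 CPM in control and 1.55, 2.40 and 1.42 CPM in treated libraries, which overlapped. It fell by 1.96 ± 0.35 in GFP-positive cells (edgeR adjusted p = 1.7e-05), and the GFP-negative value was -0.34 ± 0.43 (edgeR adjusted p = 0.58). Between the control fractions it passed no test (0.24 ± 0.39, 95% interval -0.63 to 1.11), and it was lower in GFP-positive cells after treatment (-1.33 ± 0.36, edgeR adjusted p = 0.0082), a call lost without treated GFP-negative replicate 2 (-1.04, edgeR adjusted p = 0.052).

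COL17A1, a hemidesmosome collagen of epithelia, and COL23A1 were the only collagen genes called higher in GFP-positive than GFP-negative control cells. COL17A1 was at 0.895, 1.74 and 1.31 CPM in control and 0.150, 0 and 0.212 CPM in treated GFP-positive libraries. COL17A1 in GFP-negative cells was at 0.0657, 0.294 and 0.240 CPM in control and 0.129, 0.327 and 0.142 CPM in treated libraries, too low to be tested. It was higher in control GFP-positive cells by 2.59 ± 0.55 (edgeR adjusted p = 0.0040). With treatment it fell by 3.33 ± 0.57 there (edgeR adjusted p = 9.4e-06). COL23A1 was at 6.86, 6.52 and 5.37 CPM in control and 2.49, 2.52 and 1.75 CPM in treated GFP-positive libraries. COL23A1 in GFP-negative cells was at 3.02, 2.50 and 2.32 CPM in control and 1.12, 2.25 and 0.885 CPM in treated libraries, without overlap in either fraction. It was higher in control GFP-positive cells by 1.15 ± 0.25 (edgeR adjusted p = 0.0046) and fell with treatment by 1.41 ± 0.27 (edgeR adjusted p = 4.0e-05), while its GFP-negative value was -0.89 ± 0.40 (edgeR adjusted p = 0.12), called without treated GFP-negative replicate 2 (-1.40). Beside these decreases, the motor neuron markers had 0 higher and 6 lower of 8 tested in GFP-positive cells, and 0 higher and 5 lower of 8 tested in GFP-negative cells. Over all tested genes, 12.8% rose and 11.2% fell in GFP-positive cells, and 8.59% rose and 9.75% fell in GFP-negative cells. The part of these markers in the decreases was not tested.

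Of the genes outside these classes, COL26A1, a secreted protein with short collagen stretches, was at 71.8, 80.4 and 61.9 CPM in control and 34.7, 41.4 and 30.3 CPM in treated GFP-negative libraries. COL26A1 in GFP-positive cells was at 74.9, 101 and 80.3 CPM in control and 49.1, 60.2 and 35.6 CPM in treated libraries, again below all controls. It fell by 1.03 ± 0.18 in GFP-negative (edgeR adjusted p = 0.0025) and by 0.75 ± 0.18, under 2-fold, in GFP-positive cells (edgeR adjusted p = 8.1e-04). The GFP-negative call was lost, at -0.93, without control GFP-negative replicate 2 and without treated GFP-negative replicate 3. COL7A1, the anchoring fibril collagen of skin, averaged 50.1 ± 10.5 CPM in control and 45.1 ± 16.1 CPM in treated GFP-positive cells, with log2 fold changes of -0.09 ± 0.20 and, in GFP-negative cells, -0.19 ± 0.22. COL8A1, a short-chain collagen of vessel walls, was lower in GFP-positive than GFP-negative control cells by 3.51 ± 0.43 (edgeR adjusted p = 1.5e-04) and passed no test of treatment. COL28A1 averaged under 1 CPM in every group.

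The number of collagen genes that fell in GFP-negative cells depended on single libraries. It was 9 with all 6 libraries, 5 without control GFP-negative replicate 2, 6 without treated GFP-negative replicate 1 and 4 without treated GFP-negative replicate 3. COL2A1, COL9A1 and COL21A1 were called lower under every alternative tried.

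Whether the response to treatment differed between the fractions was tested in a model of all 12 libraries with a term for treatment by fraction. Of 35 collagen genes tested, 2 passed an adjusted p of 0.05, against 2.19% of all 16226 genes. For COL1A2 the GFP-positive response was lower than the GFP-negative one by 2.73 ± 0.24 on the log2 scale (95% interval of the difference -3.24 to -2.22, edgeR adjusted p = 4.0e-05). For COL13A1 it was lower by 3.87 ± 0.49 (95% interval -4.92 to -2.83, edgeR adjusted p = 8.6e-04). The same 2 genes were those with an adjusted p under 0.05 in both fractions, in opposite directions, and in the interaction, a pattern seen in 0.256% of the 14855 genes tested in both. Without treated GFP-negative replicate 1, COL13A1 alone met all of these limits. Cells were sorted after treatment, and ISL1 was lower in treated than control libraries of both fractions. Whether treated and control libraries of a fraction hold the same kinds of cells was not tested.

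The GFP-positive and GFP-negative libraries of a number deviated together, so the interaction was also fitted with treatment and number, taken as the culture, as a block. Then 7 of 35 collagen genes passed, against 7.79% of all genes. These were COL1A2 (-2.75 ± 0.19, edgeR adjusted p = 3.9e-06), COL13A1 (-3.89 ± 0.44, edgeR adjusted p = 2.1e-04), COL22A1 (-1.25 ± 0.23, edgeR adjusted p = 0.0049), COL1A1 (-0.84 ± 0.20, edgeR adjusted p = 0.020), COL5A1 (0.88 ± 0.24, edgeR adjusted p = 0.040), COL21A1 (3.78 ± 1.04, edgeR adjusted p = 0.042) and COL18A1 (0.63 ± 0.18, edgeR adjusted p = 0.045). COL22A1 then joined the genes of opposite direction, which made 3, against 0.229% of all genes. For that count the tests within each fraction also took the number as a block, across treated and control libraries. Without it COL22A1 passed neither of those tests. In the interaction without the culture block COL22A1 stood at -1.22 ± 0.35 (edgeR adjusted p = 0.085), COL25A1 at -1.70 ± 0.54 (edgeR adjusted p = 0.12) and COL17A1 at -3.40 ± 1.07 (edgeR adjusted p = 0.12). COL21A1 had at most 7 counts in any GFP-positive library and COL17A1 at most 10 in any GFP-negative one. Neither was tested for treatment there, so a fall on that side could hardly be seen.

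Mesenchymal markers also moved with treatment in both fractions. Treated libraries held 33.4 to 49.4 CPM of them in the GFP-negative and 28.4 to 39.3 CPM in the GFP-positive fraction, with PDGFRB, FOXC2 and THY1 called lower in both, which were 3 of 6 and 3 of 3 tested. Of all tested genes, 9.75% fell in the GFP-negative and 11.2% in the GFP-positive fraction. The part of these markers in the type I values was not tested. Proliferation markers stood at 150.3 to 203 and 32.4 to 37.3 CPM, neural progenitor markers at 1221 to 1641 and 994 to 1182 CPM, floor plate markers at 11.4 to 22.6 and 1.71 to 2.36 CPM, astroglial markers at 6.60 to 9.56 and 1.17 to 1.62 CPM, neural crest and Schwann markers at 33.8 to 42.1 and 69.4 to 86.9 CPM and pluripotency markers at 112 to 154 and 49.2 to 60.6 CPM.

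Genes that fold, carry, trim and bind collagen were counted in fixed lists beside the chains. For all of these counts, 12.8% of all tested genes rose and 11.2% fell in GFP-positive cells, and 8.59% rose and 9.75% fell in GFP-negative cells. Of the collagen modification and folding genes, 5 of 18 tested rose in GFP-positive and 7 of 18 in GFP-negative cells, and 0 fell in either (3 and 2 at an unadjusted edgeR p under 0.05), with medians of 0.55 and 0.82. P4HB, the shared subunit of prolyl 4-hydroxylase, was at 867 ± 110.4 CPM in control and 3578 ± 884 CPM in treated GFP-negative cells, a rise of 2.02 ± 0.20 (edgeR adjusted p = 1.1e-04). P4HA2, a catalytic subunit of the same enzyme, rose by 1.73 ± 0.18 in GFP-positive and 2.11 ± 0.19 in GFP-negative cells. FKBP14, a prolyl isomerase of the endoplasmic reticulum, rose by 2.24 ± 0.27 and 2.26 ± 0.24, and TMEM38B, an ion channel of that compartment, by 1.92 ± 0.22 in GFP-positive cells. SERPINH1, the collagen chaperone HSP47, rose by 1.39 ± 0.16 in GFP-negative cells and was named after its value was seen.

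Of the collagen export genes 10 of 12 rose in GFP-positive cells (12.8% of all tested genes) and 8 of 12 in GFP-negative cells (8.59%), and 0 fell (0 and 0 at an unadjusted edgeR p under 0.05), with medians of 1.49 and 1.40. SEC24D, a COPII coat component, was at 6.92 ± 1.53 CPM in control and 106 ± 38.3 CPM in treated GFP-positive cells. It rose by 4.004 ± 0.23 there (edgeR adjusted p = 2.9e-16) and by 3.44 ± 0.24 in GFP-negative cells (edgeR adjusted p = 2.0e-05). MIA3, which codes for the cargo receptor TANGO1 that loads procollagen into carriers, rose by 1.95 ± 0.18 in GFP-positive cells (edgeR adjusted p = 2.6e-11). MIA2, its relative, rose by 2.02 ± 0.19 in GFP-negative cells, and SEC31A, of the outer coat, by 1.87 ± 0.16 and 1.66 ± 0.16. The chains themselves had medians below zero in the same comparisons, as given above. In the study, genes of endoplasmic reticulum stress rose with treatment in motor neurons. Whether the rises of the export and folding lists are particular to collagen handling was not tested.

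**Figure D5:**
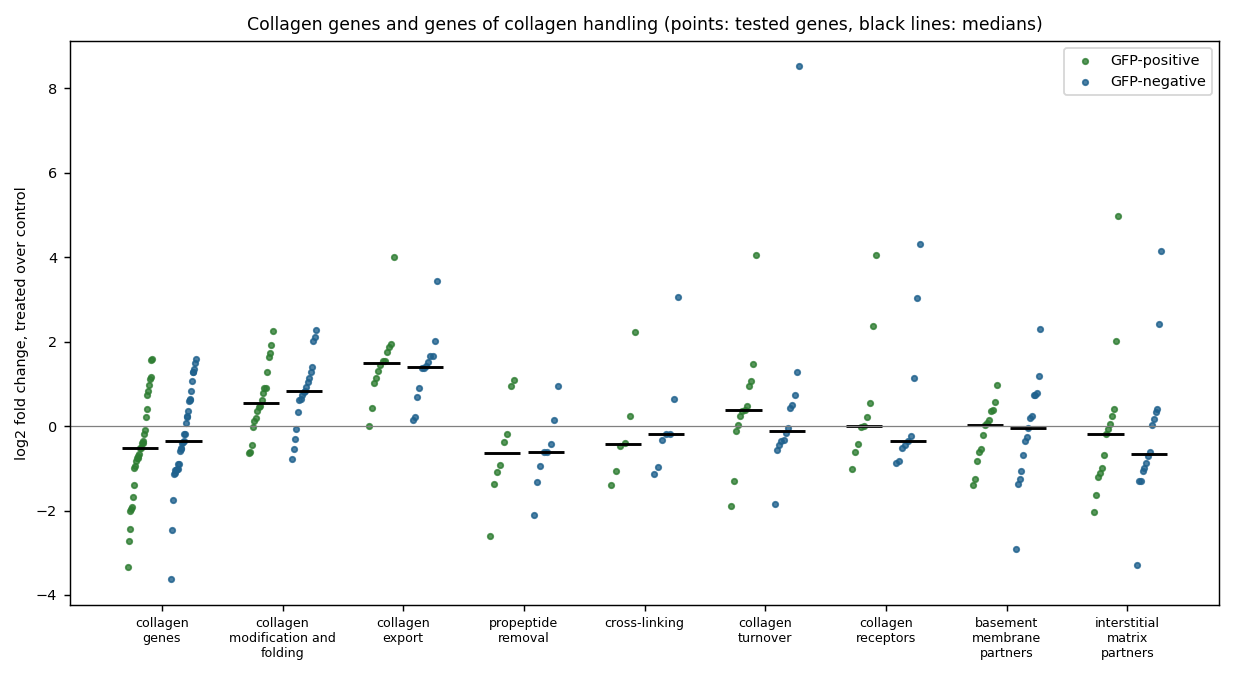
Log2 fold change of treated over control cells (y axis) of each tested collagen gene and of each tested gene in 8 lists of collagen handling (x axis), in GFP-positive (green) and GFP-negative cells (blue), with medians (black lines). Export genes had medians of 1.49 and 1.40, while the collagen genes had medians of -0.53 and -0.34.

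Calls in the lists of later steps were few, and shares near those of all tested genes (12.8% higher and 11.2% lower in GFP-positive, 8.59% and 9.75% in GFP-negative cells) say nothing particular of a list. The propeptide removal list had 1 higher and 2 lower of 8 tested in GFP-positive cells and 0 higher and 2 lower of 8 tested in GFP-negative cells. ADAMTS2, the main N-propeptidase, fell by 1.38 ± 0.28 in GFP-positive cells (edgeR adjusted p = 1.1e-04), where ADAMTS3, its relative, rose by 1.08 ± 0.41 (edgeR adjusted p = 0.028). PCOLCE2, an enhancer of C-propeptide removal, fell by 2.59 ± 0.69 and 2.10 ± 0.50 in the GFP-positive and GFP-negative fractions, and the protease gene TLL2 by 1.33 ± 0.37 in GFP-negative cells. The cross-linking list had 1 higher and 2 lower of 6 tested in GFP-positive and 1 higher and 1 lower of 7 tested in GFP-negative cells. LOX, lysyl oxidase, rose from 0.743 ± 0.211 to 6.28 ± 0.440 CPM in GFP-negative cells (edgeR adjusted p = 1.7e-04), and LOXL1 fell from 113 ± 24.1 to 52.6 ± 6.97 CPM (edgeR adjusted p = 0.0024). In GFP-positive cells LOX rose by 2.23 ± 0.49, LOXL1 fell by 1.40 ± 0.19 and LOXL4 fell by 1.07 ± 0.28.

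Beside the same shares of all tested genes, the collagen turnover list had 3 higher and 2 lower of 12 tested in GFP-positive and 2 higher and 1 lower of 12 tested in GFP-negative cells. MMP1, interstitial collagenase, was at 0.112 ± 0.0745 CPM in control and 43.2 ± 20.1 CPM in treated GFP-negative cells (edgeR adjusted p = 1.2e-05). In GFP-positive cells it was at 0.245 ± 0.179 and 3.94 ± 1.04 CPM (edgeR adjusted p = 5.2e-10). MRC2, which takes up collagen fragments, rose by 1.48 ± 0.21 and 1.28 ± 0.22, MMP15, a membrane-bound protease, fell by 1.89 ± 0.17 and 1.84 ± 0.18, and in GFP-positive cells MMP2, a gelatinase, fell by 1.29 ± 0.18 and its inhibitor family member TIMP3 rose by 1.07 ± 0.19. The receptor list had 2 higher and 1 lower of 9 tested in GFP-positive and 3 higher and 0 lower of 9 tested in GFP-negative cells. DDR2, a receptor kinase for fibrillar collagen, was at 1.51 ± 0.397 CPM in control and 23.8 ± 1.55 CPM in treated GFP-positive cells, and at 0.715 ± 0.290 and 14.5 ± 1.97 CPM in GFP-negative cells, so that it rose in both (edgeR adjusted p = 5.9e-16 and 4.6e-05). ADGRG6, an adhesion receptor that binds type IV collagen, rose by 2.37 ± 0.42 and 3.02 ± 0.43, the integrin subunit ITGB1 rose by 1.14 ± 0.27 in GFP-negative cells, and ITGA10 fell by 1.02 ± 0.39 in GFP-positive cells.

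Partners of the chains in the matrix were called in both directions, beside the same shares of all tested genes. Basement membrane partners had 0 higher and 2 lower of 13 tested in GFP-positive and 2 higher and 4 lower of 15 tested in GFP-negative cells. Of these, the laminin chain gene LAMA4 fell by 1.41 ± 0.34 and 2.90 ± 0.30, and AGRN, the organiser of the neuromuscular junction, by 1.25 ± 0.18 and 1.26 ± 0.19, in GFP-positive and GFP-negative cells. HSPG2, perlecan, fell by 1.36 ± 0.25 in GFP-negative cells. Interstitial matrix partners had 2 higher and 5 lower of 13 tested and 2 higher and 4 lower of 14 tested. TNC, tenascin C, rose from 18.997 ± 1.78 to 342 ± 32.8 CPM in GFP-negative and from 19.8 ± 0.556 to 76.2 ± 10.8 CPM in GFP-positive cells, and THBS2, thrombospondin 2, from 1.62 ± 0.473 to 8.78 ± 1.36 CPM and from 0.256 ± 0.0993 to 7.66 ± 1.43 CPM. Of the elastic fibre genes, ELN fell by 1.64 ± 0.30 and 1.29 ± 0.30 and FBLN5 by 2.03 ± 0.40 and 1.30 ± 0.30, and THBS1 fell by 1.21 ± 0.27 in GFP-positive cells. LUM, a small proteoglycan of fibrils, was at 1.30 ± 0.0448 CPM in control and 0.134 ± 0.114 CPM in treated GFP-negative cells (edgeR adjusted p = 0.0024).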

How the data were processed

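Raw read counts per gene of 12 libraries, 3 in each of 4 groups, were used as deposited. Per the labels and the study's methods, the authors prepared stranded mRNA libraries and mapped reads to hg38 (GRCh38) with HISAT2, and the submitters' processing notes name featureCounts for the counts. Sort fraction and replicate were taken from the labels. All titles open with the word untreated, those of treated samples included, and treatment was taken from the treatment field and the rest of the title. Of the per-sample columns, 0 were left unused. Counts were scaled by TMM and tested with edgeR 4.0.16 in R 4.3.3 (quasi-likelihood F-test, filterByExpr with a minimum count of 10 and minimum total of 15, Benjamini-Hochberg adjustment over all genes tested), with calls made at an adjusted p below 0.05 and 2-fold or more, and on the adjusted p alone for the interaction. The script for these fits was tested on simulated data. SE was the log2 fold change over the root of F, and 95% intervals used the t distribution with the fit's degrees of freedom. CPM and SD used 1 TMM scaling over 12 libraries, with Python 3.11.15, and levels between genes were divided by GENCODE 44 exon length. Promoters came from RefSeq (GRCh38.p14), and 32 of 44 genes matched, COL1A1 and COL1A2 not among them. Depth was 23414935 to 38347050 counts per library. Intervals cover only the spread among 3 libraries per group, which edgeR moderates across all tested genes. The fit's degrees of freedom for treatment were 35.5 in GFP-positive and 9.77 in GFP-negative cells.

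Values of every library are given for the 21 genes with a mean of at least 1 CPM in some group that were called in a treatment comparison or the interaction. From each list of collagen handling, up to 3 genes with the largest change per comparison and direction are named, except 1 that is not reported here. The collagen genes, classes and lists (modification and folding, export, propeptide removal, cross-linking, turnover, receptors, basement membrane partners, interstitial matrix partners and markers of motor neurons, neural progenitors, floor plate, neural crest and Schwann cells, mesenchyme, smooth muscle, chondrocytes, endothelium, astroglia, pluripotency and proliferation) were chosen with earlier results of these data known. The main fits took no libraries as paired. For the block between the fractions and in the interaction, the GFP-positive and GFP-negative libraries of 1 treatment and number were taken as paired. The sources describe sorting after treatment but do not state that a number marks a shared culture. The pairing rests on the data, since their deviations from the group means correlated with r from 0.12 to 0.46 in all 6 pairs over 13813 genes. With libraries of another number r was at most 0.08, which for control number 2 is close to its 0.12. Treated and control GFP-negative libraries of number 2 reached 0.40 though they were not taken as paired, so the evidence for pairing is uneven. Alternatives were RLE scaling, library size alone, no filter, DESeq2 1.42.0, the replicate block, a fit of all 12 libraries and leaving out each library.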

Additional observations from a re-analysis of the deposited data

Results flagged for a closer look

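For 2 collagen genes the effect of treatment differed between the sort fractions by the interaction test. COL1A2 differed by -2.73 on the log2 scale (GFP-positive minus GFP-negative response), with an edgeR adjusted p of 4.0e-05. Its GFP-positive value was -2.02 ± 0.18 and its GFP-negative value 0.62 ± 0.16. All 3 treated libraries lay below all 3 controls in GFP-positive cells and above them in GFP-negative cells. COL13A1 differed by -3.87, with an edgeR adjusted p of 8.6e-04, from -2.43 ± 0.39 in GFP-positive and 1.35 ± 0.30 in GFP-negative cells, in the same pattern of libraries. Leaving out each of the 12 libraries in turn, the COL1A2 difference ranged from -2.86 to -2.40 and that of COL13A1 from -4.29 to -3.47. No collagen gene in any group was tested for a single far library, since each group has 3.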

How the results depend on the processing

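In control cells the numbers called between the fractions stayed at 2 higher and at 19 to 20 lower under the other settings, and at 2 and 19 to 21 when each library was left out. In treated cells they were 0 higher and 19 to 22 lower, but 1 higher (COL28A1) in a fit of all 12 libraries, and 0 to 1 higher and 17 to 22 lower when each library was left out. With treatment, leave-one-out gave 3 to 6 higher and 8 to 10 lower calls in GFP-positive cells. In GFP-negative cells it gave 4 to 5 higher and 4 to 11 lower calls. The interaction was called for 2 collagen genes, but for 5 by DESeq2 and 7 with the replicate block, and for 2 to 3 when each library was left out. Opposite directions were found for 2 genes, 3 with blocks in the interaction and within both fractions, and 1 to 2 when each library was left out.

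Signs reversed for some values that passed no test. With library size alone the interaction of COL11A1 was 0.015 and that of COL12A1 0.152. Leaving out each library turned the interaction of COL2A1 (-0.55 to 0.071), COL4A1 (-0.022 to 0.66), COL9A2 (-0.061 to 0.59), COL12A1 (-0.28 to 0.23), COL14A1 (-0.87 to 0.29) and COL26A1 (-0.0026 to 0.53), and the GFP-negative value of COL5A3 (-0.055 to 0.41). The causes were not tested. Library size alone moved the median of all genes from 0.03 to 0.14 in GFP-positive cells, from 0.05 to 0.22 between treated fractions and from -0.05 to 0.20 in the interaction.

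In the main fits, treated and control libraries of a number were not taken as paired either. Their deviations correlated with r of -0.04, 0.15 and 0.19 in GFP-positive and -0.08, 0.40 and 0.04 in GFP-negative cells. With the number as a block 4 genes were higher and 9 lower in GFP-positive cells, and 4 and 9 in GFP-negative cells. Within control and within treated cultures, the block gave 20 and 22 lower calls. Genes under 1 CPM rest on few counts, so their values are the least certain.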

Other observations

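Of the 9 collagen-named rows left out of the comparisons, only the pseudogene COL6A4P2 was abundant enough to be tested. It averaged 0.961 ± 0.113 CPM in control and 1.64 ± 0.440 CPM in treated GFP-negative cells, and 1.05 ± 0.145 and 2.49 ± 0.957 CPM in GFP-positive cells. The log2 fold change was 1.30 ± 0.35 in GFP-positive cells (edgeR adjusted p = 0.0024) and 0.75 ± 0.36 in GFP-negative cells (edgeR adjusted p = 0.14). The other 8 rows held between 0 and 28 counts summed over all libraries.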
